A study of Mus musculus with 6 samples.

Results

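The genes described here are 9 that encode the B cell receptor's signalling chains, its inhibitory partners and the enzymes and adaptors next to it. They are Cd79a, Cd79b, Cd22, Cd72, Blnk, Btk, Syk, Plcg2 and Pik3ap1, taken by name, as the rows of the authors' deposited table with these identifiers. All 9 were found once each among 29209 rows, and all 9 are among the 18543 rows with an adjusted p and have a fold that is neither 0 nor infinite. RNA came from subcutaneous tumours of NCr nude mice, a strain without a thymus that keeps its own B, NK and myeloid cells. The tumours grew from injected spleen cells taken from diseased mir-155LSLtTA animals, in which doxycycline (DOX) withdraws the overexpressed microRNA miR-155. In 3 samples the host ate grain-based chow with DOX (2.3 mg per kg) during the last 16 hours, and in 3 it received none. Both groups carry the transgene, and no tumour without it received DOX, so effects of DOX and of miR-155 loss cannot be told apart. The labels give neither the tumour's cell type nor the promoter that drives the transgene, and they do not say whether the samples came from separate animals, so the p-values reflect the variation among the 6 samples alone, technical or not.

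The B cell receptor pairs a membrane immunoglobulin with CD79A and CD79B, whose cytoplasmic tyrosines are phosphorylated by Src family kinases when antigen binds. The kinase SYK docks there and phosphorylates the adaptor BLNK, which brings the kinase BTK to phospholipase C gamma 2 (PLCG2), the source of the second messengers that release calcium and activate protein kinase C. CD22 and CD72 recruit the phosphatase SHP-1 and dampen this response, and PIK3AP1 (BCAP) couples the receptor complex to PI3 kinase. In developing B cells the same enzymes serve the pre-B cell receptor.

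The table holds 1 comparison and no value per sample, group mean, standard error or depth, so values by sample are not shown. Its fold is read here as DOX over no DOX. The table does not name the numerator, and every direction turns if it is the other group. A gene is called where the authors' adjusted p is under 0.05, and "rose" and "fell" are used of called genes alone. In bulk tissue, fewer cells of a type and less RNA per cell cannot be told apart. Each log2 fold is given with an approximate standard error, the size of the log2 fold divided by the normal quantile of the authors' unadjusted p. It stands in for the missing error, is not independent of the p, and covers only the spread that the authors' tool modelled.

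The 9 genes did not move as a unit. Cd72, Syk and Blnk rose, Plcg2 fell, and the other 5 were not called. By the authors' deposited table, of these genes 3 of 9 were called higher, against 5.72% of all tested rows, and 1 of 9 lower, against 5.61%. Log2 folds ran from -1.51 to 1.38 in the authors' deposited table, with 4 of the 9 above 0 and a median of -0.27. Over the 15784 tested rows with a finite fold the median in the authors' deposited table was 0.17, and 55.9% lay above 0. With the folds centred on that median, 0 of the 9 changed side. The genes were chosen with earlier results of these data known, so the count describes them and is no test of the group.

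**Figure D1:**
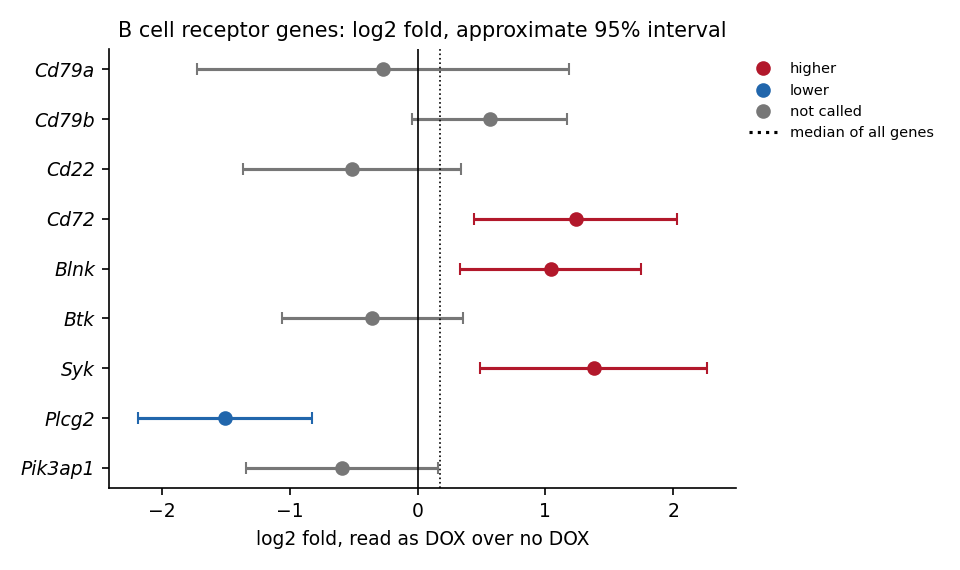
Log2 fold (x axis, read as DOX over no DOX) of each of the 9 genes, with bars for the approximate 95% interval. Red marks genes called higher, blue lower and grey not called, and the dotted line is the median of all genes at 0.17. Cd72, Blnk and Syk lie to the right of 0 and Plcg2 to the left with intervals that do not reach it, and the other 5 intervals span 0.

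The receptor's own signalling chains were not called. Cd79a, which encodes CD79A (Ig-alpha), stood at a log2 fold of -0.27, from the authors' deposited table (approximate SE 0.744, adjusted p = 1). Its approximate 95% interval, from -1.73 to 1.19, is the widest of the 9, and a 2-fold change in either direction lies within it. Cd79b, which encodes the partner chain CD79B (Ig-beta), stood at 0.56 in the authors' deposited table (approximate SE 0.310, adjusted p = 0.276). The interval for Cd79b, from -0.04 to 1.17, is the narrowest and leans above 0. The partners of this heterodimer thus had folds of opposite sign, neither of them called, and the difference between them was not tested.

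The inhibitory receptors differed from each other in whether they were called. Cd72, a C-type lectin-like receptor of B cells, rose 2.36-fold in the authors' deposited table (log2 fold 1.24, approximate SE 0.406, adjusted p = 0.0263). Cd22, a sialic acid-binding lectin (Siglec) of B cells, was at -0.51 by log2 fold in the authors' deposited table (approximate SE 0.436, adjusted p = 0.594). The approximate interval for Cd22 runs from -1.37 to 0.34. Tesk1, a kinase gene on the opposite strand, overlaps Cd72 in the reference annotation, and no source used here says whether the authors' counting used strand. Tesk1 itself was not called, at 0.43 by log2 fold in the authors' deposited table (adjusted p = 0.710).

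Among the kinases and adaptors that pass the signal on, the first kinase and its adaptor rose. Syk rose 2.60-fold in the authors' deposited table (log2 fold 1.38, approximate SE 0.453, adjusted p = 0.0269). The row for Syk is the 1 of the 9 with no RefSeq accession, and its description names a full-length cDNA clone from embryonic stem cells, so which Syk transcripts were counted is not known. Blnk, the adaptor that SYK phosphorylates, rose 2.06-fold in the authors' deposited table (log2 fold 1.04, approximate SE 0.363, adjusted p = 0.0397). Btk, the Tec family kinase that BLNK brings to its substrate, was at -0.36 by log2 fold in the authors' deposited table (approximate SE 0.362, adjusted p = 0.698). For Btk the approximate interval was -1.07 to 0.35, which leaves out a 2-fold rise. Pik3ap1, the PI3 kinase adaptor, stood at -0.59 in the authors' deposited table (approximate SE 0.383, adjusted p = 0.396), with an interval from -1.34 to 0.16.

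Plcg2, the phospholipase at the end of this chain, moved against Syk and Blnk. It was 2.85-fold lower with DOX in the authors' deposited table (log2 fold -1.51, approximate SE 0.348, adjusted p = 0.000591). By unadjusted p it ranked 445 of 18543 in the authors' deposited table, where Cd72 ranked 1625, Syk 1634 and Blnk 1930. Plcg2 thus had the strongest call of the 9 and the only fall. At an adjusted p under 0.01 it alone was called, 0 higher and 1 lower of the 9, against 3.11% and 3.07% of all tested rows in the authors' deposited table. With a Bonferroni adjustment 0 of the 9 were called, against 0.739% higher and 0.831% lower, and Plcg2 had an adjusted p of 0.263, from p-values of the authors' deposited table. The calls of Cd72, Syk and Blnk therefore hold at 0.05 and end at 0.01.

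**Figure D2:**
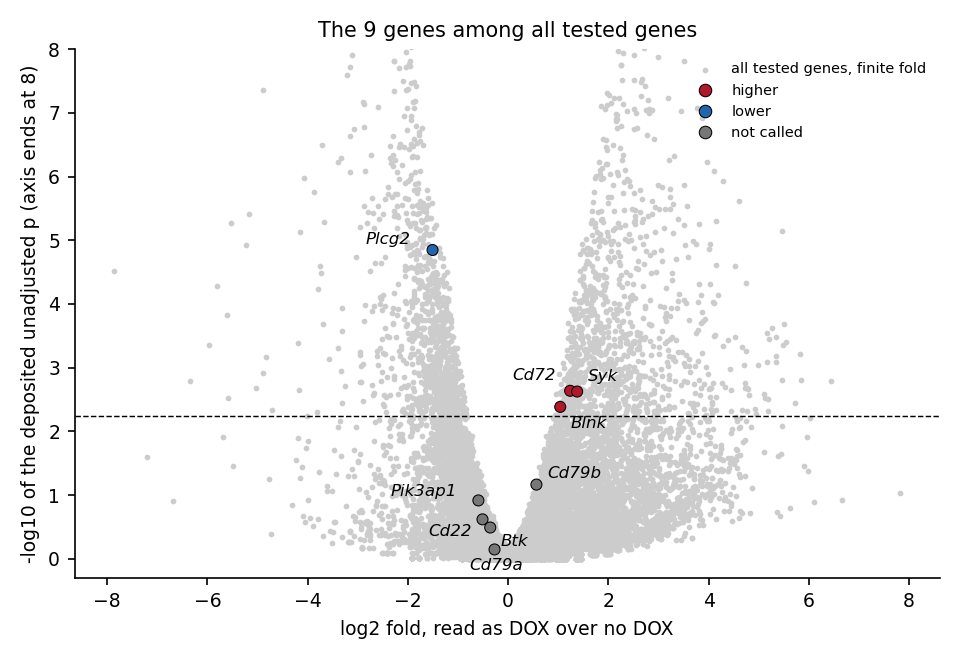
Log2 fold (x axis) against -log10 of the authors' unadjusted p (y axis, a log scale that ends at 8 and leaves 103 genes above it) for tested genes with a finite fold in grey and the 9 genes in colour. The dashed line marks the largest p among called genes, 0.00566. The 9 genes lie along the inner edge of the cloud, Plcg2 far above the line on the left and Syk, Cd72 and Blnk just above it on the right.

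Most of the 9 had a small spread for their fold. The approximate SE was under the median of all genes with a value (0.606, 13930 genes) for 8 of the 9, Cd79a being the exception. Cd79b was at percentile 3.72 of these approximate SEs and Plcg2 at 7.77, while Cd79a was at 59.7. The folds of the called genes were moderate: the log2 fold of Syk lay at percentile 78.5 of all finite log2 folds in the authors' deposited table, Cd72 at 76.2, Blnk at 72.4 and Plcg2 at 6.60.

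In the rest of the B cell receptor pathway, too, calls lay in both directions. Of 90 other pathway genes, listed by role, 6 rose and 4 fell in the authors' deposited table, 6.67% and 4.44%, close to the 5.72% and 5.61% of all tested rows. The difference from the 9 genes, of which 4 were called, was not tested. Their median log2 fold was -0.12 in the authors' deposited table, against 0.17 for all genes, and 42 of the 90 lay above 0. Centred on the median of all genes, 36 of the 90 lay above.

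Of 12 genes for inhibitors of the receptor 2 rose (16.7%) and 1 fell (8.33%) in the authors' deposited table. Of all tested rows 5.72% rose and 5.61% fell, and the difference was not tested. Ptpn6, which encodes the phosphatase SHP-1 that CD22 and CD72 recruit, fell in the authors' deposited table (log2 fold -2.35, adjusted p = 4.4e-05). Dok3, an adaptor that restrains B cell receptor signalling, rose in the authors' deposited table (1.86, 0.0101), as did Cd200r1, an inhibitory receptor best known from myeloid cells (4.06, 0.0471). The other 9 of 12 inhibitory genes were not called. Among 8 membrane-proximal kinases and their regulators 0 rose and 1 fell (12.5%), beside the same shares of all tested rows. The gene that fell was Pag1, whose product holds the Src-inhibiting kinase CSK at the membrane (-1.82, 0.000594, in the authors' deposited table). The other 7 were not called. So Cd72 rose while the gene of the phosphatase that acts through its product fell.

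Of 14 genes of the calcium and NFAT list 2 rose (14.3%) and 0 fell in the authors' deposited table. Of all tested rows 5.72% rose and 5.61% fell. A count of 0 in 14 is near the latter share, and the difference for the rises was not tested. Without adjustment 3 of the 14 passed 0.05, as did 4147 of all 18543 tested rows. The third was Itpr3, an isoform of the calcium channel below, at -1.41 by log2 fold (adjusted p = 0.0872) in the authors' deposited table. Its name was added after its value was seen. Plcg1, the homologue of Plcg2 used by T cell and growth factor receptors, rose in the authors' deposited table (log2 fold 1.12, adjusted p = 0.0417). Plcg1 and Plcg2 were thus called in opposite directions, at log2 folds 2.63 apart, a difference that was not tested as such. Itpr2, a calcium channel that opens on the phospholipase's product, rose in the authors' deposited table (1.19, 0.00656).

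Of 11 PI3 kinase genes 2 rose in the authors' deposited table, among them Pik3ca, a catalytic subunit (log2 fold 1.08, adjusted p = 0.0497). The share that rose was 18.2% and 0 fell in the authors' deposited table, against 5.72% and 5.61% of all tested rows. The difference for these rises was not tested. Pik3cd, the catalytic subunit most tied to B cell receptor signalling, was at 0.13 in the authors' deposited table (adjusted p = 1), and its name was added after its value was seen. Of 15 Ras, MAPK and Rac genes 1 fell (6.67%) and 0 rose in the authors' deposited table, near the 5.61% and 5.72% of all tested rows. The gene that fell was the blood cell GTPase gene Rac2 (-1.58, 0.000383). Of the 15 genes 13 lay below 0, whereas 55.9% of all tested rows with a finite fold lay above 0. That difference was not tested. Of 16 adaptor and ubiquitin ligase genes 0 were called by the authors' tool, DESeq, and 5 passed 0.05 without adjustment in the authors' deposited table. Of all 18543 tested rows 4147 passed 0.05 without adjustment. Gab1 (1.66, adjusted p = 0.0545) and Nck1 (1.25, 0.105) came nearest among these adaptors in the authors' deposited table. Of 5 co-receptor and tetraspan genes 0 were called and 3 passed 0.05 without adjustment, led by Cd81 (-1.93, adjusted p = 0.0753) and Cd37 (-0.93, 0.115) in the authors' deposited table.

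**Figure D3:**
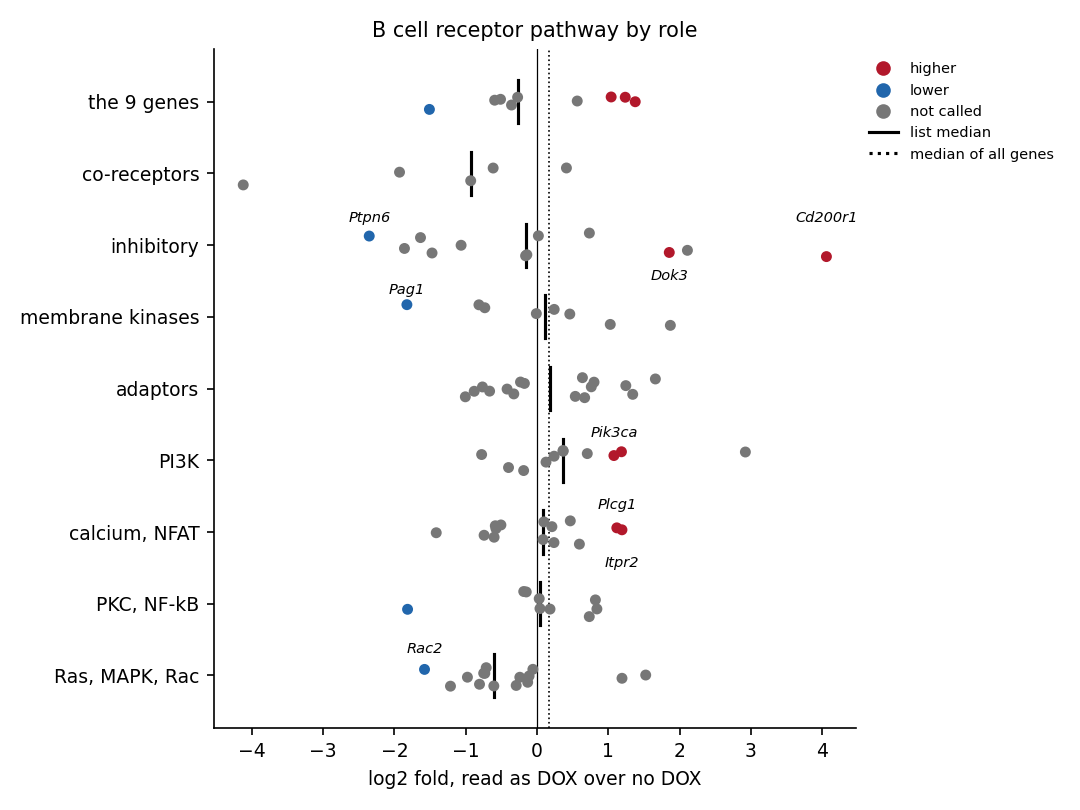
Log2 folds (x axis, read as DOX over no DOX) of the 9 genes in the top row and of 90 other B cell receptor pathway genes by role, 1 point a gene. Red is called higher, blue lower and grey not called, black bars are list medians, and the called genes described in the text are named outside the top row. Calls of either direction are scattered over the roles, and the Ras, MAPK and Rac row lies mostly to the left of 0.

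Several of the 9 genes are not confined to B cells. Syk, Btk, Plcg2 and Pik3ap1 are known from macrophages and other myeloid cells as well, whereas Cd79a, Cd79b and Cd22 are mainly B lineage genes. All 15 macrophage markers had a fold above 1, with a median of 2.16 by log2 fold in the authors' deposited table. Of these markers 3 rose (20%), against 5.72% of all tested rows. They were led by Csf1r (2.16, adjusted p = 1.45e-05), Mertk (3.30, 0.000172) and Ccr2 (2.78, 0.000233) in the authors' deposited table. Of 9 tested neutrophil markers 3 rose and 8 had a fold above 1 in the authors' deposited table. Of 14 B lineage markers outside the 9 genes, 1 rose and 0 fell, with a median of 0.27 by log2 fold in the authors' deposited table. The B lineage marker that rose was the transcription factor gene Ebf1 (1.61, 0.000853), while Ms4a1, a B cell surface marker gene, stood at -4.12 (0.183) in the authors' deposited table. The share of each cell type in the samples is not known from a table without levels, and its part in the folds of Syk and the other 8 genes was not tested. Of the 4 genes named above as also known from myeloid cells, Syk rose, Plcg2 fell, and Btk and Pik3ap1 were not called. Cd72 and Blnk, which also rose, were not sorted by cell type here, so this count is incomplete.

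In the other marker lists, 2 of 9 pro-B and pre-B genes rose (22.2%) and 3 fell (33.3%) in the authors' deposited table. Of all tested rows 5.72% rose and 5.61% fell, and no marker list was tested against these shares. Fibroblast genes had 2 of 10 higher, dendritic cell genes 1 of 8 higher and endothelial genes 1 of 8 lower in the authors' deposited table. None was called among the tested T cell (10), NK cell (8), platelet (5), erythroid (5) and mast cell or basophil (3) markers in the authors' deposited table. Of these, 1 T cell marker and 0 of the others passed 0.05 without adjustment, against 4147 of all 18543 tested rows. The mast cell marker Cpa3 is listed at a ratio of 0.

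**Figure D4:**
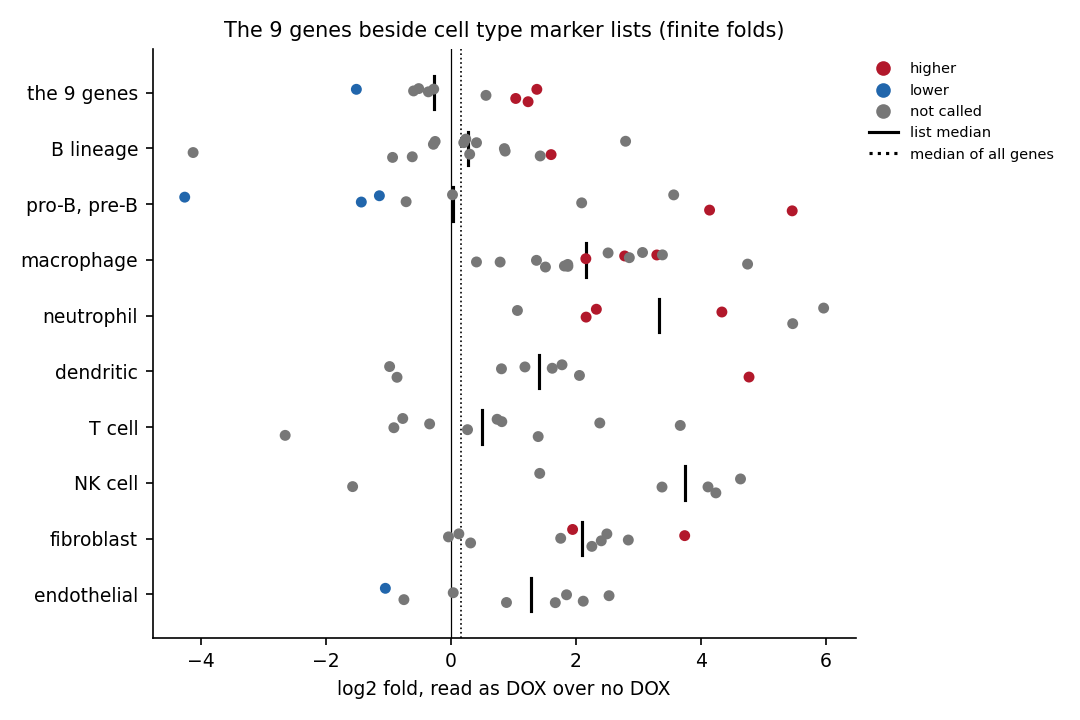
Log2 folds (x axis, read as DOX over no DOX) of the 9 genes and of markers of other cell types, for genes with a finite fold, with colours as called and black bars for list medians. Macrophage and neutrophil markers all lie to the right of 0, and the 9 genes lie on both sides.

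No member carries a site for miR-155 in its 3' untranslated region (UTR). A microRNA finds its targets mainly through bases 2 to 8 at its 5' end, the seed, which is shown here in capitals in the mature mouse sequence from RefSeq (GRCm38.p6).
mmu-miR-155-5p: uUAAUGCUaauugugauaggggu
A matching site reads AGCATTA (bases 2 to 8) or GCATTAA (bases 2 to 7 followed by A). Neither was found in the longest annotated 3' UTR of any of the 9 genes. Of 14084 tested genes with an annotated 3' UTR 13.5% hold 1 or more, and a count of 0 in 9 is near that share. The shorter match GCATTA, present in 21.1% of these genes, was also found in 0 of 9, and searching every annotated 3' UTR gave 0 of 9 too. The longest 3' UTRs run from 246 bases for Blnk to 2997 for Syk, with 6 of the 9 shorter than the median of all genes (1145 bases). Cd72, Blnk and Syk, which rose, have no such match in these annotated 3' UTRs, and neither does Plcg2, which fell. Whether miR-155 acts on any of the 9 was not tested. Sites outside the annotated 3' UTR were not searched.

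Promoter windows of 250 bases before to 50 after the annotated start were searched for 5 short motifs of factors known from B cells and growth control, on both strands. RefSeq windows were matched for 8 of the 9 genes, all but Cd79b, and Syk has 2 windows. The windows of Cd72, Blnk and Plcg2 are shown because these genes were called and hold a match, 5' to 3' on the gene's strand, with the match in capitals. The window of Cd72 lies at chr4:43454577-43454876 (minus strand), Blnk at chr19:40994172-40994471 (minus) and Plcg2 at chr8:117498025-117498324 (plus), on GRCm38.p6.
Cd72: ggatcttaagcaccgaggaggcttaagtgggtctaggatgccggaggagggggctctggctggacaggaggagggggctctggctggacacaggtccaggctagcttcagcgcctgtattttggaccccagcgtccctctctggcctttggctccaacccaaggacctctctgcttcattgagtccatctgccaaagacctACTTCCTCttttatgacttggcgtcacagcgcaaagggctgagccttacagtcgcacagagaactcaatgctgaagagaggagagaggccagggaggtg
Blnk: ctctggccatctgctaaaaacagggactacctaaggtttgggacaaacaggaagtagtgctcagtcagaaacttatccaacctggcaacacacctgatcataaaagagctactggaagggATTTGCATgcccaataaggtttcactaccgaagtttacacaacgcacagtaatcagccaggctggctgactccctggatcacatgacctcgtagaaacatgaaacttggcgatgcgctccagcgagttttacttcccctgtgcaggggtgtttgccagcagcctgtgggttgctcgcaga
Plcg2: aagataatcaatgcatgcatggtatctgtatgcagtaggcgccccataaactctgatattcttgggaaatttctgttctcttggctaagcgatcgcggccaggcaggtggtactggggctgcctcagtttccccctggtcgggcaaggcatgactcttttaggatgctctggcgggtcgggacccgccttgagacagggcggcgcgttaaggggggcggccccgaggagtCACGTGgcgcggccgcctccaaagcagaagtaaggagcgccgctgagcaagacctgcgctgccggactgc
The window of Cd72 holds the PU.1 motif GAGGAAGT on its minus strand, from base -49, as do 3.20% of all 32851 windows. In Blnk the octamer ATGCAAAT lies on the minus strand from base -130, and 1.74% of windows hold it. The palindromic E-box CACGTG, a MYC-MAX motif present in 7.15% of windows, lies at base -20 in Plcg2 and at base -172 in Pik3ap1. Cd22 holds the EBF1 core CCCNNGGG from base -48, as do 13.7% of windows. The forkhead motif GTAAACA (3.65% of windows) was found in none of the 9 windows of these genes. The windows of Cd79a, Btk and Syk held no exact match to any of the 5 motifs. Only exact matches were counted, with any base at N, so variant sites were missed. AGGAAGT, the PU.1 motif without its first letter, also lies in the windows of Cd79a and Blnk. Its share over all windows was not counted. A match is a description of the letters, not of binding. The genes that rose share no exact match to these motifs with each other.

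The windows differ in base composition too. GC content was 72.0% in the upstream Syk window with 31 CpG, 69.7% in Pik3ap1 with 26 and 60% in Plcg2 with 21, against medians of 52.7% and 7 over all windows. The downstream Syk window had 48% GC and 2 CpG, the fewest of the 9 windows. Cd72 (7 CpG), Cd79a (8), Blnk (7), Cd22 (4) and Btk (3) lay near or below the median CpG count.

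Across all genes the direction of change went with transcript length, and the called members did not all follow it. Among genes in the third length decile, which holds Blnk (2097 bases), 2.13% rose and 9.58% fell, and in the fourth, which holds Cd72 (2583 bases) and Btk (2540), 2.62% rose and 7.09% fell, by calls of the authors' deposited table. Plcg2 (4298 bases) lies in the eighth decile, where 7.09% rose and 4.75% fell by the same calls. Blnk and Cd72 thus rose among lengths where falls were more frequent, and Plcg2 fell among lengths where rises were. Syk (5363 bases) rose in the ninth decile, where 9.56% rose and 3.40% fell by calls of the authors' deposited table. Cd79a (1457 bases) and Cd79b (1431) lie in the second decile, where 1.98% rose and 8.27% fell. The folds were not adjusted for length, and whether length has a part in any of these calls was not tested.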

How the data were processed

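RNA-seq of 6 tumour samples, 3 with DOX and 3 without, was deposited as 1 table of the authors' comparison. The tools RSEM and DESeq and the build mm9 are named, without versions, per the submitters' processing notes. Per the file headers, the deposited values are a linear fold change (a ratio) and unadjusted and adjusted p-values. The deposited log2 column was not used, and log2 was taken from the ratio. A Benjamini-Hochberg adjustment of the unadjusted values over 18543 rows matched the authors' adjusted p-values within 2.09e-06, and 10666 further rows have none.

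The members and lists (8 pathway roles, 12 sets of cell markers) were chosen with earlier results of these data known, and no list was tested. Listed genes were matched by symbol, RefSeq accession or synonym. Named are the 9 genes, up to 4 called genes per role and direction, up to 2 others where a role has no call, and up to 3 markers per list, of which some are not reported here. Approximate standard errors were computed for p up to 0.9 with scipy 1.17.1. The code for them and for the adjustment was run on simulated normal values. That run checks the arithmetic alone, not whether the approximate errors suit these data. UTRs and lengths come from GENCODE M21 (GRCm38), so no mm9 coordinate is given. Alternatives were other thresholds, Bonferroni, a 2-fold minimum and adjustment over parts of the table. Depth is unknown.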

Additional observations from a re-analysis of the deposited data

How the results depend on the processing

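The calls of the 9 genes (3 higher, 1 lower) were the same at an adjusted p under 0.1, with a 2-fold minimum, and when adjusted over finite folds or protein-coding matches alone. Adjusted over rows with a RefSeq accession, an alternative chosen after seeing the data, 2 were higher and 1 lower, since Syk has none. Under 0.01 the counts were 0 higher and 1 lower, and under Bonferroni 0 and 0, both stricter by construction. Without adjustment 4 of 9 had a p under 0.05, as did 4147 of all 18543 tested rows. The 90 other pathway genes, 6 higher and 4 lower, became 1 and 4 under 0.01 and 0 and 1 under Bonferroni. All genes, 1060 and 1041, became 576 and 569 under 0.01, 137 and 154 under Bonferroni, and 669 and 960 with a RefSeq accession, where 13097 rows were tested. Sites for the miR-155 seed were found in 0 of 9 genes with 7-base, 8-base or 6-base sites and in any annotated 3' UTR. No paired analysis was possible because the table holds no value per sample, and for the same reason no sample could be left out. Depth, and so the limit of detection per sample, is unknown.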

Other observations

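Genes next to the 9 on their chromosomes were looked at after the data were seen. On chromosome 13 the nearest annotated protein-coding genes on either side of Syk also rose, Diras2, a Ras-like GTPase gene (log2 fold 3.92, adjusted p = 0.0422), and Auh, a mitochondrial enzyme gene (1.17, 0.0497), in the authors' deposited table. Both neighbours of Btk on the X chromosome fell while Btk was not called: Timm8a1, of mitochondrial import (-2.72, 0.00317), and the ribosomal protein gene Rpl36a (-0.92, 0.0225), in the authors' deposited table. Rpl36a has near-identical copies, so its share of reads is uncertain. Neither neighbour of Plcg2 was called, with Cmip at 0.37 (0.586) and Sdr42e1 at -0.58 (0.901) in the authors' deposited table. Over all 18 neighbours, each tested, 4 rose and 3 fell in the authors' deposited table. Of all tested rows 5.72% rose and 5.61% fell, and the neighbours were not tested as a set.

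Blnk and Pik3ap1 lie on chromosome 19 with 4 annotated protein-coding genes between them, of which 2 were tested. Dntt, the terminal transferase gene beside Blnk, had a log2 fold of 2.09 (adjusted p = 0.821) and Tm9sf3, beside Pik3ap1, of 0.09 (0.983) in the authors' deposited table. On the outer sides Zfp518a, listed as Zfp518, rose beside Blnk (1.64, 0.00808), and Lcor, a nuclear receptor corepressor gene, rose beside Pik3ap1 (2.10, 0.00347) in the authors' deposited table.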
